A study of Mus musculus with 4 samples.

Results

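The replication-dependent histone genes encode the linker histone H1 and the 4 core histones H2A, H2B, H3 and H4 from clusters of small genes. They were taken as the protein-coding genes of GENCODE mouse release M21 whose symbol starts with Hist1h, Hist2h, Hist3h or Hist4h, a rule that uses no measured value. This gave 65 genes of the 48858 genes to which the deposited transcripts were joined: 6 for H1, 18 for H2A, 16 for H2B, 12 for H3 and 13 for H4. The Hist1 cluster on chromosome 13 held 52 of them, the Hist2 cluster on chromosome 3 held 10, and Hist3 on chromosome 11 and Hist4 on chromosome 6 held 2 and 1. A further 2 annotated members, Hist1h2bh and Hist1h2bm, were not analysed here.

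RNA was sequenced from naive CD4 T cells of mice, sorted as TCRb+ CD4+ CD25- cells with high CD62L and low CD44. The 2 wild-type libraries (WT) came from littermate controls with the genotype Btg1f/f Btg2f/f, in which both genes carry loxP sites and no Cre is present. The 2 double-knockout libraries (DKO) came from Btg1f/f Btg2f/f-CD4-Cre mice, in which Cre under Cd4 control removes both genes in T lineage cells, including cells that later become CD8 T cells. No age or sex is used here, and the cells received no treatment. Btg1 and Btg2 encode antiproliferative proteins that recruit the deadenylase complex to mRNA, and the series title names the stability of mRNA in quiescent T cells as the question. The libraries were made from rRNA-depleted total RNA, so transcripts without a poly(A) tail could be captured.

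Histone mRNA of this class is made mainly in S phase, when new DNA has to be packaged. It normally ends just after a short stem-loop and carries no poly(A) tail, and the stem-loop binding protein Slbp takes the place of the poly(A) binding protein in its processing, translation and decay. Some of these genes also give polyadenylated transcripts in cells that do not divide. H1 binds the linker DNA between nucleosomes, whereas H2A, H2B, H3 and H4 form the nucleosome core.

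The stem-loop marks this class of mRNA. The metazoan consensus of this element, a stem of 6 bases on each side and a loop of 4, was found on the sense strand in the annotated transcripts of 44 of the 65 members, against 0.2% of all 141767 transcripts of the release. Of the 8 forms found, 2 are given here, in 4 members whose counts the results turn on. The capitals mark the 16 bases of the stem-loop, the letters are those of the M21 transcripts on GRCm38, and each runs 5′ to 3′ in the sense of the transcript.

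Hist1h2ab: acaaaGGCTCTTTTCAGAGCCacccacatc
Hist1h2ap: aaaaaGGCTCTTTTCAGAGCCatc
Hist1h1c: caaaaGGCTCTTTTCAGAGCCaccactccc
Hist4h4: acaaaGGCCCTTTTCAGGGCCcacaaagca

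The form of the first 3 lines was found in 24 members, of the H1, H2A, H2B and H3 types. The form of Hist4h4 was found in 7 members, all of them H4 genes. The annotated transcript of Hist1h2ab ended 11 bases after the stem-loop and that of Hist1h2ap 3 bases after it. Those of Hist1h1c and Hist4h4 went on for 840 and 2445 bases and had the polyadenylation signal AATAAA near their end.

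The WT libraries held 14970076 and 13889894 estimated counts, and those of DKO held 16567226 and 17827631, in the order of the replicate numbers, which is also the order of all values below. Protein-coding genes took 37.3 ± 2.26% of a WT library and 46.8 ± 2.98% of a DKO library (SD over 2 each), and the members 0.0511 and 0.0628% in WT against 0.0637 and 0.0911% in DKO. Levels are therefore given as CPM, counts divided by the library size, with library sizes scaled by TMM, which centres the differences on the middle of all genes. A floor of 3 counts corresponded to 0.216, 0.26, 0.177 and 0.139 CPM. The deleted genes matched the labels: Btg1 had 532.1 and 472.1 CPM in WT against 6.11 and 5.80 CPM in DKO, and Btg2 had 93.4 and 92.5 CPM against 0.296 and 0.325 CPM. The T cell markers were present, and the markers of other cells are given beside the low histone genes. The labels speak of pairs of mice, so the spread is taken as that between animals, and with 2 libraries a group it is measured poorly.

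On the TMM scale the summed level of the histone genes did not separate the genotypes. All members together had 551.1 and 756.0 CPM in WT and 623.8 and 753.4 CPM in DKO, means of 653.6 ± 144.8 and 688.6 ± 91.6 (SD, n = 2 each). WT replicate 2 and DKO replicate 2 were at one level and the other replicate of each group lay below it, so the groups overlapped. This depends on the scaling: as a share of all counts, given above, both DKO libraries were above both WT libraries. The log2 ratio of the sums was 0.09 on the TMM scale, 0.43 with total counts only and 0.05 with TMM over protein-coding genes only. Further scalings are in the closing section. No p-value is given for a sum over members, and 2 libraries against 2 could not give an exact two-sided permutation p below 0.333. In bulk RNA, fewer cells that make histone mRNA and less of it in each cell cannot be told apart.

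By type, H1 was the most abundant in counts, with 281.3 and 377.6 CPM in WT and 328.8 and 383.1 CPM in DKO. H2A had 136.2 and 195.9 CPM in WT and 154.1 and 194.0 CPM in DKO. H2B had 53.3 and 59.5 CPM against 49.7 and 71.6 CPM. In each of these types a WT library lay between or above the DKO libraries. H3 had the lowest sum, 20.5 and 37.3 CPM in WT and 23.0 and 32.0 CPM in DKO. H4 had 59.9 and 85.6 CPM in WT and 68.2 and 72.7 CPM in DKO. The ratio of the DKO to the WT mean stayed between 0.952 for H3 and 1.08 for H1, which is within the spread of the libraries in every type.

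**Figure D1:**
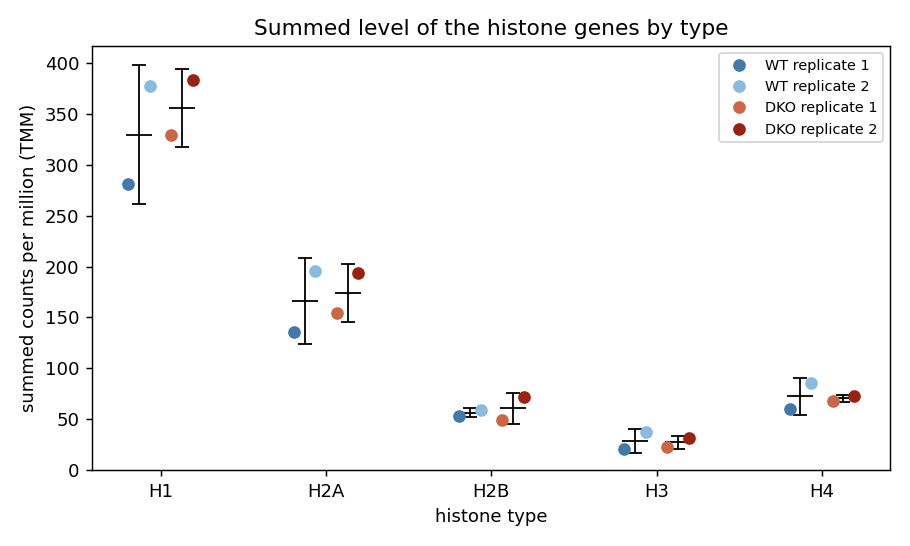
Summed CPM (vertical axis, TMM-scaled) of the histone genes by histone type (horizontal axis). Each point is a library and the black marks are the group mean ± SD of 2 libraries; the groups overlap in all 5 types, and WT replicate 1 is the lowest library in 4 of them.

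The clusters gave the same picture except for the small Hist3 cluster. Hist1 had 429.4 and 575.2 CPM in WT and 492.8 and 613.1 CPM in DKO. Hist2 had 100.2 and 157.1 CPM against 110.7 and 117.3 CPM, and Hist4, a single gene, 7.38 and 10.9 CPM against 5.91 and 7.60 CPM. All 3 overlapped between the groups. Hist3, with Hist3h2a and Hist3h2ba, had 14.1 and 12.8 CPM in WT and 14.4 and 15.5 CPM in DKO, so both DKO libraries were above both WT libraries, by 1.11-fold in the mean. The gap between WT replicate 1 and DKO replicate 1 was small, and 19.9% of all single genes tested showed such a separation.

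No member passed edgeR's quasi-likelihood test at an adjusted p of 0.05. Of the 65 members, 55 had enough counts to be tested, and 0 were called higher and 0 lower, against 0.0544 and 0.07% of the 12863 genes tested. At an unadjusted p under 0.05, 6 members were higher and 3 lower in DKO, beside 3.82 and 4.35% of all genes. Of the 6, Hist1h2ab, Hist1h2ah, Hist1h2bb, Hist1h3b and Hist2h3c2 passed the count filter only with the DKO libraries in which they are high. Nothing is read from that count, or from later calls of these genes after the same filter. DESeq2 called 2 higher, Hist1h2ah and Hist1h2ap, beside 0.428% of all genes higher and 1.03% lower. The median log2 fold change was 0.09 over the tested members and -0.01 over all genes tested. Without WT replicate 1 the members' median was -0.09 and without DKO replicate 2 it was -0.17, so the sign of the median rested on single libraries.

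The number of called members depended on the scaling, the filter and the tool, and so did the calls over all genes. With DESeq2 size factors in edgeR 1 member was called, higher (0.07% of all genes were called higher and 0.0933% lower). With total counts only 3 were called higher (1.51% of all genes, with 0.513% lower), and with scaling to RNA polymerase III transcripts 8 were called higher (3.67%, with 0.171% lower). With protein-coding genes only 1 was called higher (0.328%, with 0.15% lower). Without a filter on low counts 5 were called higher and 1 lower (0.544 and 0.98%), and with the replicate number as a block 2 higher and 1 lower (0.412 and 0.7%). An effective length offset called 0 members (0.0233% of all genes higher and 0.0389% lower). In limma 0 members were called on log2(TPM + 0.1) (0.00777 and 0.0389% of all genes) and 0 on log2(TPM + 1) (0.00777 and 0.0311%). Hist1h2ap was among the called members in every alternative that called any, and with its identical copy added to it, as given below, 0 features were called.

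Leaving out single libraries gave 1 or 2 called members. Without WT replicate 1, Hist1h2ap was called higher and Hist2h2ac lower (0.243 and 0.938% of all genes). Without WT replicate 2, Hist1h2ap and Hist2h2aa1 were called higher (0.209%, with 0.348% lower). Without DKO replicate 1, Hist1h2ap was called higher (0.105%, with 0.26% lower). Without DKO replicate 2, Hist1h2ap was called higher and Hist1h2ao lower (0.0879 and 0.205%). The lone library of a group was there assumed to vary like the other group.

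Both DKO libraries were above both WT libraries in 9 of the 55 members (16.4%, against 19.9% of all genes) and below them in 9 (16.4%, against 18.8%). These shares were near the background. The share of members whose highest library was DKO replicate 2 was 27 of 55 (49.1%), against 21.7% of all genes. A log2 fold change above 1 was found in 8 members (2.31% of all genes had one). Nothing is read from that count, since Hist1h2ab, Hist1h2ah, Hist1h2bb, Hist1h3b and Hist2h3c2 passed the count filter only with the DKO libraries in which they are high. They are also among the 27. Those 8 were Hist1h1b, Hist1h2ab, Hist1h2af, Hist1h2ah, Hist1h2ap, Hist1h2bb, Hist1h3b and Hist2h3c2, named after their values were seen, and each was highest in DKO replicate 2.

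**Figure D2:**
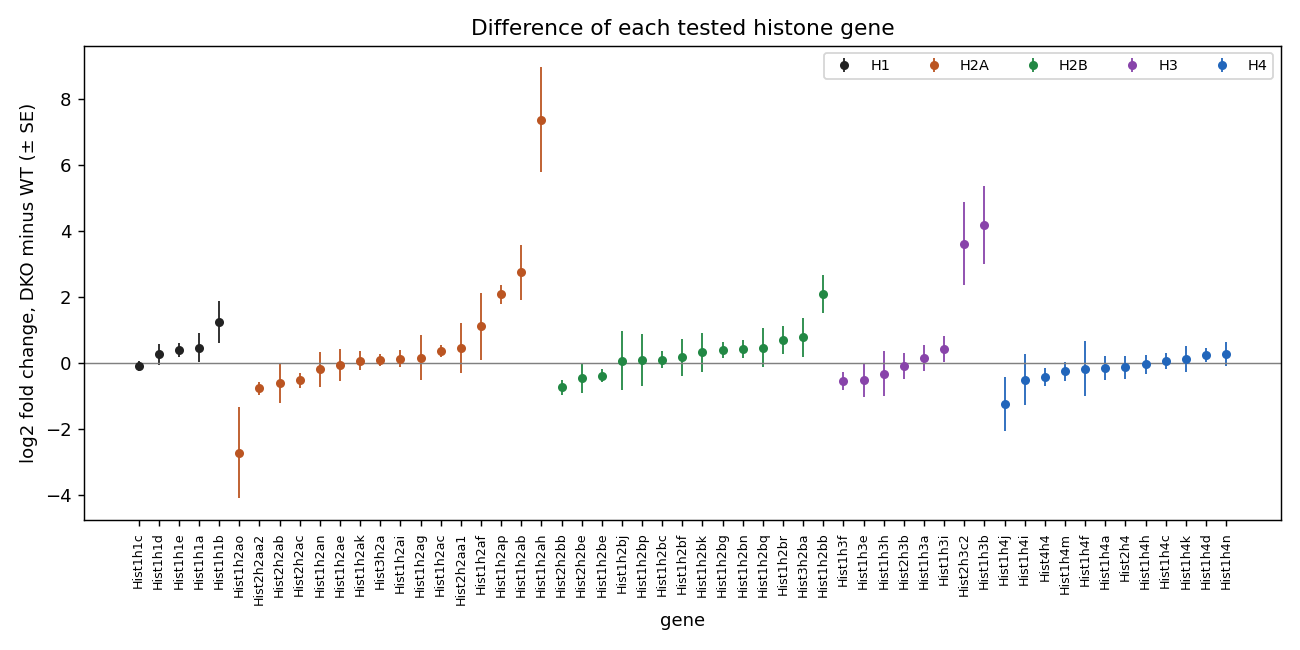
Log2 fold change (DKO minus WT, vertical axis) of each of the 55 tested histone genes (horizontal axis), as points with the standard error of the edgeR fit, coloured by histone type. 8 genes lie above 1, and the highest H4 gene is at 0.26.

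Among the H1 genes, Hist1h1c and Hist1h1e, the main somatic linker histones in these libraries, made up 46.7% of the members' counts in WT and 47.3% in DKO. Hist1h1c (chr13:23738808-23740367, plus strand, 1 exon) had 175.4 and 211.0 CPM in WT and 172.1 and 187.4 CPM in DKO. Hist1h1e (chr13:23620629-23622558, minus strand, 1 exon) had 86.3 and 136.4 CPM against 134.2 and 154.8 CPM. The log2 fold change was -0.10 ± 0.15 (SE) for Hist1h1c and 0.38 ± 0.22 for Hist1h1e, with adjusted p of 0.922 and 0.715 in edgeR. Both overlapped between the groups. In M21 the span of Hist1h1e overlaps that of Hist1h2be on the same strand, in a part that lies past the Hist1h1e stem-loop. The Hist1h1e model that was counted, of 748 bases against 1930 in M21, lacks this long stretch, so its counts do not rest on the shared part.

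Per length, in TPM, the deposited unit that divides by effective length, the order of these genes turned. Hist1h1e had 11.7 and 15.7 TPM in WT and 20.8 and 27.7 TPM in DKO, and Hist1h1c 10.3 and 10.6 TPM against 11.5 and 14.4 TPM. Hist1h1e was above Hist1h1c in every library on this scale. The order rests on the transcript lengths in the files, 748 bases for Hist1h1e and 1560 bases for Hist1h1c, of which only the second includes a long stretch past the stem-loop. TPM is a share of a library in which the protein-coding part differed between the groups, so a ratio of genotypes in TPM carries that difference too.

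The other H1 genes were lower. Hist1h1d had 16.4 and 25.1 CPM in WT and 18.1 and 31.1 CPM in DKO, and Hist1h1a 1.80 and 3.56 CPM against 3.02 and 4.27 CPM. Hist1h1b, a linker histone of dividing cells, had 1.37 and 1.56 CPM in WT, 1.42 CPM in DKO replicate 1 and 5.43 CPM in DKO replicate 2. Its log2 fold change of 1.23 ± 0.63 (SE) was -0.02 without DKO replicate 2. Hist1h1t, the testis form, was at 0 in all 4 libraries.

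The log2 fold changes of the H2A genes ran from -2.73 to 7.37, and 2 pairs of H2A genes have identical coding sequences. Hist1h2ap (chr13:21833026-21833507, minus strand) had 2.57 and 4.09 CPM in WT and 11.6 and 16.2 CPM in DKO. Its log2 fold change was 2.07 ± 0.29 (SE), with an adjusted p of 0.0537 in edgeR, the smallest among the members. It passed the threshold when any 1 library was left out, with adjusted p from 0.0176 to 0.0257 in edgeR. Hist1h2ao (chr13:21810465-21810944, plus strand) has the same coding sequence, and its values ran the other way: 5.67 and 6.998 CPM in WT against 0 and 1.80 CPM in DKO.

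Every 31-base stretch of the coding part of Hist1h2ap also occurs in Hist1h2ao, so reads there were divided between them by the estimation. Of the 31-base stretches of the whole Hist1h2ap transcript, 6.64% occur in no other gene. Summed, the pair had 8.23 and 11.1 CPM in WT and 11.6 and 18.0 CPM in DKO. Both DKO libraries were above both WT libraries, by 1.53-fold in the mean. Fitted as 1 feature, the pair had a log2 fold change of 0.62 ± 0.26 (SE) and an adjusted p of 0.601 in edgeR. How much of either gene's own difference is a shift in the division of reads was not tested.

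Hist2h2aa1 and Hist2h2aa2 are a second such pair and the most abundant H2A genes. Hist2h2aa1 (chr3:96245497-96246082, plus strand) had 17.5 and 61.4 CPM in WT and 52.0 and 54.8 CPM in DKO. Hist2h2aa2 (chr3:96239749-96240276, minus strand) had 42.3 and 32.2 CPM in WT and 18.9 and 24.5 CPM in DKO, a log2 fold change of -0.78 ± 0.19 (SE) with an unadjusted p of 0.00278 and an adjusted p of 0.223 in edgeR. Their sum was 59.8 and 93.6 CPM in WT against 70.9 and 79.3 CPM in DKO and overlapped, with a log2 fold change of -0.03 ± 0.21 as 1 feature.

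**Figure D3:**
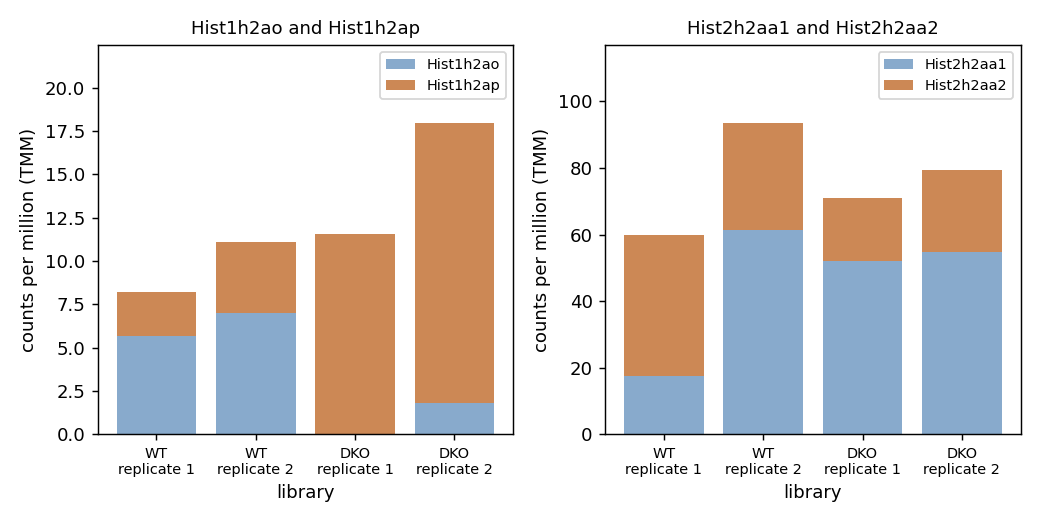
CPM (vertical axis, TMM-scaled) in each library (horizontal axis) of Hist1h2ao with Hist1h2ap (left) and of Hist2h2aa1 with Hist2h2aa2 (right), stacked so that the bar height is the pair's sum. Hist1h2ao is the larger part in both WT libraries and 0 or 1.80 CPM in the DKO libraries, while the sums differ less than the single genes.

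In all, 5 pairs of members had identical coding sequences, 2 of H2A and 1 each of H2B, H3 and H4. Hist1h2bq with Hist1h2br summed to 2.84 and 6.03 CPM in WT and 5.47 and 7.95 CPM in DKO. Hist1h4m with Hist1h4n summed to 8.01 and 9.46 CPM against 8.01 and 9.28 CPM, with overlap between the groups. With the 5 pairs fitted as single features, edgeR again called 0 histone features, with 16 calls over all features. Beyond the pairs, the median share of a member's 31-base coding stretches found in no other gene was 83.4% in H1, 21.5% in H4, 12.5% in H2B, 9.31% in H2A and 8.86% in H3. Single-gene values of core histones are therefore uncertain, and those of H1 less so.

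Other abundant H2A genes differed less. Hist1h2ac had 14.6 and 16.6 CPM in WT and 17.6 and 22.1 CPM in DKO, and did not overlap between the groups. Hist2h2ac had 17.9 and 29.1 CPM against 17.2 and 15.2 CPM, a log2 fold change of -0.54 ± 0.23 (SE) with an adjusted p of 0.61 in edgeR, and without WT replicate 1 the adjusted p was 0.0406. Hist3h2a had 12.9 and 11.8 CPM against 13.01 and 13.08 CPM. Hist3h2a overlaps Trim17 on its own strand, a gene with under 1 CPM in every library.

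Several of the members with large fold changes were low in counts. Hist1h2ab (chr13:23751126-23751598, plus strand) had 5 and 11 WT counts against 28 and 151 DKO counts, or 0.384 and 0.993 CPM against 1.63 and 6.999 CPM. Hist1h2bb, a nearby H2B gene on the same strand (chr13:23746734-23747241), had 9 and 12 WT counts against 37 and 107 DKO counts, or 0.656 and 1.03 CPM against 2.17 and 4.96 CPM. Both genes were above WT in both DKO libraries and highest in DKO replicate 2. Neither would have passed the count filter on its WT libraries alone. The log2 fold changes were 2.75 ± 0.83 and 2.09 ± 0.58 (SE), with adjusted p of 0.416 and 0.315 in edgeR.

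Both promoters hold the octamer ATTTGCAT or its complement, the element bound by Oct-1, which is known as a regulator of H2B genes. The 250 bases before the RefSeq start of each gene are shown because the 2 genes lie close together and have like values. The RefSeq start is that of M21 for Hist1h2bb and lies 38 bases upstream of it for Hist1h2ab. They were read from RefSeq on GRCm38.p6, at chr13:23750838-23751087 for Hist1h2ab and chr13:23746484-23746733 for Hist1h2bb, both plus strand. The capitals mark the octamer, CCAAT and TATAAA on either strand.

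Hist1h2ab: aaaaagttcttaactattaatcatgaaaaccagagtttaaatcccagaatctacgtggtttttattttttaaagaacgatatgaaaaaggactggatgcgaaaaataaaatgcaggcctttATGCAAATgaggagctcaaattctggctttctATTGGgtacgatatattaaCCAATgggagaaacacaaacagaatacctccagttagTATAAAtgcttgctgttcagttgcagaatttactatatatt
Hist1h2bb: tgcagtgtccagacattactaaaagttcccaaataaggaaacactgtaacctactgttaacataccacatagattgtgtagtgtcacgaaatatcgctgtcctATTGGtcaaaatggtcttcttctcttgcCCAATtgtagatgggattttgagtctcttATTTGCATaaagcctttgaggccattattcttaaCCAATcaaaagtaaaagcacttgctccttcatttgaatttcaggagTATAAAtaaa

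Over the 60 members with a RefSeq promoter of 300 bases, the octamer was found in 7 of 18 H2A and 6 of 14 H2B promoters and in 0 of the H1, H3 and H4 promoters, against 1.74% of all 32851 promoters. CCAAT was found in 85.0% of the members' promoters, against 37.4% of all, and in all but those of H4, where 25.0% had it. TATAAA was found in 58.3%, against 13.6% of all. All 3 motifs were searched on both strands, and a match describes the letters and not a bound site. The windows of Hist1h2aa and Hist1h2ba, of Hist1h2ae and Hist1h2bg, and of Hist1h2ah and Hist1h2bk overlap and all hold the octamer. The same element can thus count for an H2A and an H2B gene, and these matches are not separate elements. The promoters with the octamer included those of Hist1h2ah, Hist1h2ac, Hist2h2ac and Hist2h2bb, and those of Hist1h2ap and Hist1h2ao had none.

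H2A and H2B genes often share a promoter region, with their starts facing away from each other. There were 12 such pairs among the members, 176 to 306 bases apart, and both genes were tested in 9. The log2 fold changes had the same sign in 6 of the 9 pairs. In the pair of Hist2h2ac and Hist2h2be they were -0.54 and -0.46, and in that of Hist1h2ap and Hist1h2br 2.07 and 0.68. In that of Hist1h2ao and Hist1h2bq they were -2.73 and 0.46, in that of Hist1h2ae and Hist1h2bg -0.07 and 0.38, and in that of Hist1h2an and Hist1h2bp -0.20 and 0.08. Over the 9 pairs, as a description, the Pearson correlation was 0.20.

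Further low members had few or no counts in WT. Hist1h2ah, an H2A gene, had 0 counts in both WT libraries and 20 and 30 in DKO, at least 11-fold higher against a floor of 3 counts over the WT group. In its coding part 3.39% of the 31-base stretches are its own, so a value of 0 may be an outcome of how reads were divided. Hist1h3b had 2 and 0 WT counts against 14 and 48 DKO counts, a ratio of 20.5 with an exact 95% counting interval from 5.43 to 172.8. Hist2h3c2 had 0 and 2 counts against 11 and 32, a ratio of 14.2 with an interval from 3.70 to 121.0. The coding sequence of Hist2h3c2 is that of Hist2h3c1, which was at 0 in all libraries, and Hist1h3b shares 80.4% of its coding stretches with Hist1h3h, so these counts too may depend on how reads were divided. These intervals cover counting error only and not the spread between mice. Hist1h2af had 10 and 21 counts in WT, 10 in DKO replicate 1 and 103 in DKO replicate 2, so its high value rests on 1 library.

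Genes of cycling cells differed among themselves. DKO replicate 2 was the highest library for 12 of the 16 tested mitotic genes and for 13 of the 32 tested replication genes, against 21.7% of all genes. Gins2, with 1 and 33 WT counts against 25 and 78 in DKO, is among the 13. It passed the count filter only with the DKO libraries, so nothing is read from that count of replication genes. Tubb5, a tubulin and the most abundant gene of the mitotic list, had 224.1 and 265.6 CPM in WT and 258.1 and 258.6 CPM in DKO and overlapped. Mki67, the Ki-67 antigen of cycling cells, had 4.26 and 5.79 CPM in WT and 8.93 and 31.5 CPM in DKO. Top2a, a topoisomerase of dividing cells, had 7.40 and 5.66 CPM against 9.56 and 21.5 CPM, and Hmgb2 18.3 and 24.9 CPM against 34.4 and 44.3 CPM. Stmn1 had 8.65 and 15.7 CPM against 17.1 and 21.3 CPM. Aurkb and Bub1b were highest in a WT library and Plk1 in DKO replicate 1. Of the list of mitotic genes, 16 of 20 were tested and 0 were called in either direction by edgeR. In that list both DKO libraries were above both WT libraries for 7 genes (19.9% of all genes did so), 5 had an unadjusted p under 0.05, all higher (3.82% of all genes), and the median log2 fold change was 0.68. Cdc20, with 2 and 2 WT counts against 12 and 31 in DKO, and Plk1, with 3 and 6 against 17 and 12, are among the 7. Both passed the count filter only through the DKO libraries, and Cdc20 is also among the 5. Nothing is read from the counts over the tested genes of this list or from their median.

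The list of DNA replication genes was closer between the groups. Of its 36 genes 32 were tested and 0 were called in edgeR, 2 had an unadjusted p under 0.05, and the median log2 fold change was 0.12. Its summed level was 312.1 and 343.3 CPM in WT and 348.1 and 370.9 CPM in DKO. Pcna, the sliding clamp of the replication fork, had 42.7 and 42.3 CPM in WT and 45.6 and 47.6 CPM in DKO. Mcm2 and Mcm4, of the replicative helicase, had 32.2 and 38.2 CPM against 38.6 and 37.2 CPM, and 38.7 and 42.9 CPM against 45.4 and 43.6 CPM.

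**Figure D4:**
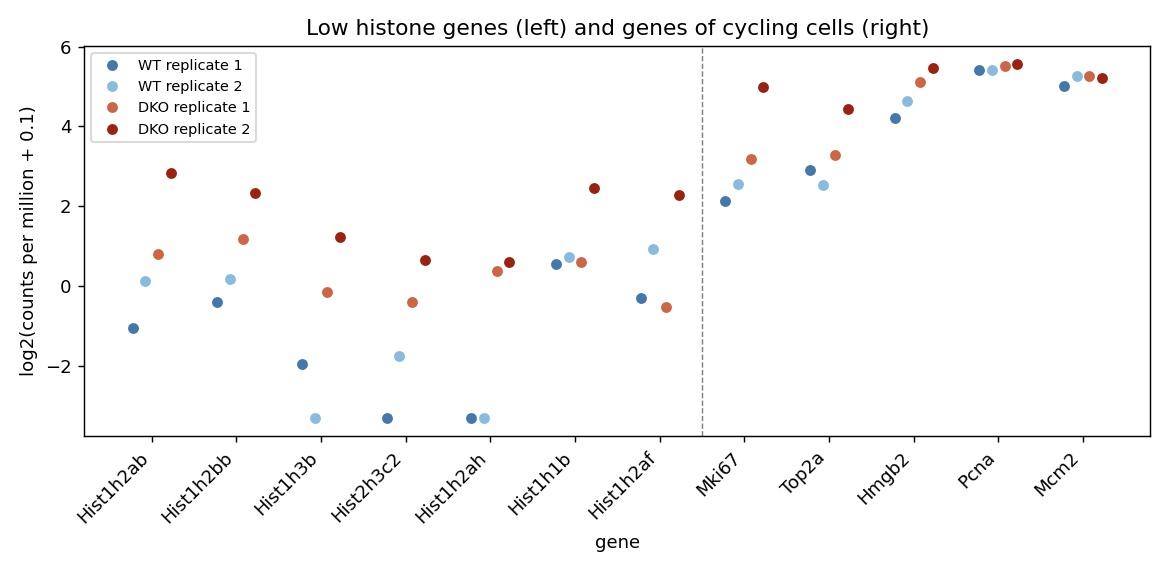
Level of each gene (horizontal axis) in each library as log2(CPM + 0.1) on the vertical axis, for low histone genes on the left and genes of cycling cells on the right. DKO replicate 2 is the highest library for all 7 histone genes shown and for Mki67, Top2a and Hmgb2, whereas Pcna and Mcm2 are nearly level over the 4 libraries. The 7 were named after their values were seen, and all but Hist1h1b and Hist1h2af passed the count filter only with the DKO libraries. Nothing is therefore read from their common order. Of the mitotic genes not drawn, Tubb5, Aurkb and Bub1b were highest in a WT library and Plk1 in DKO replicate 1.

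Markers of regulatory T cells, which the CD25- gate would mostly leave out, had larger values in DKO, though edgeR called 0 of the 5 listed. Nrp1, with 20 and 6 WT counts against 92 and 194 in DKO, passed the count filter only through the DKO libraries. Nothing is therefore read from its adjusted p of 0.0948 in edgeR, the smallest of the 5. The summed level of these markers was 12.9 and 13.2 CPM in WT and 28.2 and 45.2 CPM in DKO. Both DKO libraries were above both WT libraries for 4 of the 5 (19.9% of all genes did so), and Ctla4 overlapped. Nrp1 is among the 4, so nothing is read from that count. None of the 5 was at 0. Foxp3, the transcription factor that defines regulatory T cells, had 1.81 and 2.54 CPM in WT and 5.14 and 10.5 CPM in DKO. The part of these cells or of cycling cells in the histone values was not tested. The CD8 T cell markers summed to 7.22 and 7.56 CPM in WT and 8.64 and 13.2 CPM in DKO. Nearly all of it was Cd8b1, with 6.79 and 7.47 CPM against 8.57 and 12.99 CPM, whereas Cd8a stayed at or below 0.433 CPM. Of the B cell markers Cd79a had 0.721 and 0.0867 CPM in WT and 1.06 and 1.30 CPM in DKO. Myeloid markers summed to 5.04 and 3.98 CPM against 2.62 and 5.62 CPM. Red cell and NK cell markers summed to at most 1.72 and 0.392 CPM in any library, and both were highest in a DKO library.

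Among H2B genes with more counts, 2 overlapped between the groups and 2 were below WT in both DKO libraries. Hist1h2bg had 7.85 and 9.50 CPM in WT and 9.04 and 13.3 CPM in DKO, and Hist1h2bc 6.18 and 8.78 CPM against 7.19 and 8.67 CPM. Hist1h2be had 10.2 and 10.1 CPM in WT and 7.45 and 8.09 CPM in DKO. Hist2h2bb (chr3:96269752-96270132, plus strand) had 8.12 and 10.5 CPM against 5.41 and 5.63 CPM, a log2 fold change of -0.75 ± 0.24 (SE) with an unadjusted p of 0.0125 and an adjusted p of 0.414 in edgeR. Hist2h2bb lies opposite to the antisense gene Gm20628, which had 6.33 and 14.3 CPM in WT and 6.85 and 8.57 CPM in DKO. Without a stated strand setting, reads of the 2 genes cannot be told apart.

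The H3 genes were low throughout. Hist1h3f had 7.08 and 11.0 CPM in WT and 5.85 and 6.35 CPM in DKO and did not overlap, with an adjusted p of 0.648 in edgeR. Hist1h3e had 4.41 and 12.2 CPM against 4.47 and 6.86 CPM, and Hist2h3b 2.64 and 5.31 CPM against 3.21 and 4.19 CPM. WT replicate 2 was the highest library for all 3 of these genes. Hist1h3b and Hist2h3c2, which passed the count filter only with the DKO libraries, were highest in DKO replicate 2. Like Hist2h2bb, Hist2h3b lies opposite to Gm20628, and without a stated strand setting their reads cannot be told apart. Hist1h3i had 2.04 and 3.42 CPM against 3.74 and 3.37 CPM and overlapped. Of the 12 H3 genes 8 were tested.

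The abundant H4 genes overlapped between the groups. Hist1h4d had 12.9 and 20.3 CPM in WT and 19.3 and 19.7 CPM in DKO, Hist1h4c 9.05 and 13.97 CPM against 11.9 and 11.9 CPM, and Hist2h4 6.56 and 12.8 CPM against 10.5 and 6.96 CPM. The DKO libraries lay inside the range of the WT libraries for all 3. Hist4h4 (chr6:136801553-136804415, minus strand), whose annotated transcript runs far past the stem-loop, had 7.38 and 10.9 CPM against 5.91 and 7.60 CPM. Over the 12 tested H4 genes, the log2 fold change ran from -1.25 for Hist1h4j to 0.26 for Hist1h4n, with a median of -0.15 and 2 genes highest in DKO replicate 2.

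The members' counts were also divided by where the annotated transcript ends. This describes the gene models and not the ends of the RNA molecules, since 60 of the 65 members have 1 transcript. Models that end within 20 bases of the stem-loop were those of Hist1h2ab, Hist1h2ap and Hist1h4m. They held 1.501 and 1.27% of the members' counts in WT and 2.74 and 3.66% in DKO, or 8.27 and 9.60 CPM against 17.1 and 27.6 CPM. This class includes Hist1h2ap, whose reads are shared with Hist1h2ao, which falls in the next class with 31 bases past the stem-loop.

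Models that extend past the stem-loop by over 20 bases held 56.4 and 54.5% of the members' counts in WT and 50.1 and 46.5% in DKO, with no overlap between the groups. Their summed level did overlap, at 310.8 and 412.1 CPM in WT and 312.6 and 350.1 CPM in DKO. Transcripts without the stem-loop held 9.21 and 8.60% against 7.83 and 9.998%. The other 21 transcripts, with 32.9 and 35.6% in WT and 39.3 and 39.9% in DKO, have another length in the files than in M21 and were not classified. Hist1h1e and Hist1h2ac are among them, and in M21 these extend past the stem-loop by 1153 and 2010 bases, though their models in the files are shorter. The unclassified share was higher in both DKO libraries. The lower share on extended models in DKO therefore depends on where the unclassified transcripts would fall. It is not read as fewer extended RNA molecules, and no share over all genes was at hand for such a separation.

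**Figure D5:**
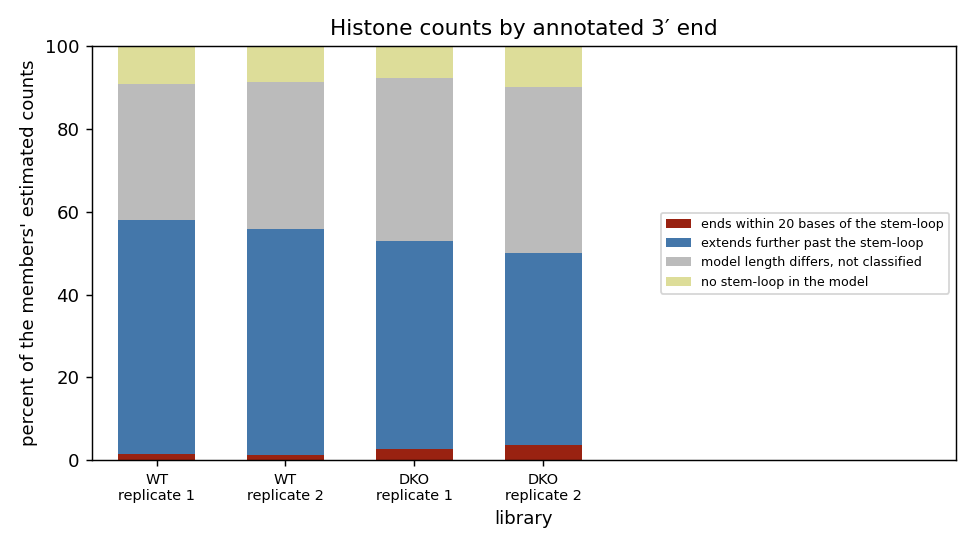
Percent of the members' estimated counts (vertical axis) in each library (horizontal axis) by the annotated 3′ end of the transcript model. The part that extends past the stem-loop is 56.4 and 54.5% for WT against 50.1 and 46.5% for DKO, and the part that ends near it is below 4% in all. The unclassified part is 32.9 and 35.6% for WT against 39.3 and 39.9% for DKO, and the extended part depends on where it would fall.

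Of the genes that make, use and remove histone mRNA, none passed edgeR's test. Slbp had 16.7 and 17.8 CPM in WT and 20.6 and 18.8 CPM in DKO, and Npat, the coactivator of histone gene transcription, 16.4 and 14.5 CPM against 18.2 and 18.2 CPM. Eri1, an exonuclease that trims histone mRNA, had 24.6 and 23.4 CPM against 27.2 and 27.2 CPM, and Upf1, a helicase needed for its decay, 64.9 and 68.0 CPM against 68.3 and 69.5 CPM. Both DKO libraries were above both WT libraries for these 4 genes, by small amounts, where 19.9% of all genes did so. Tut4, a uridylyltransferase and the most abundant gene of the decay list, had 90.7 and 92.5 CPM in WT and 87.4 and 86.6 CPM in DKO, and Tut7 78.0 and 83.7 CPM against 76.9 and 85.9 CPM. Of the 20 tested genes of transcription and 3′ end processing, 7 were above WT and 0 below WT in both DKO libraries, 0 had an unadjusted p under 0.05 and the median log2 fold change was 0.10. Of the 19 genes of translation and decay, 3 were above WT and 6 below WT in both DKO libraries, 1 had an unadjusted p under 0.05, Lsm6 of the Lsm ring, which was lower, and the median was -0.07. Cpsf3, the endonuclease of 3′ end processing, had 44.4 and 55.7 CPM against 62.9 and 52.8 CPM and overlapped. Rnu7, the small RNA of the processing complex (chr6:124741225-124741286), was at 0 in all libraries. Whether so short an RNA could be counted here was not tested, so its absence is not read from this.

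Replacement histones, which are made outside S phase, were mostly level. H3f3a had 127.4 and 171.6 CPM in WT and 157.8 and 163.2 CPM in DKO, and H3f3b, which encodes the same H3.3 protein, 127.7 and 160.6 CPM against 116.1 and 141.9 CPM. H1f0, the replacement linker histone of resting cells, had 8.15 and 10.6 CPM in WT and 3.13 and 4.78 CPM in DKO. Its log2 fold change was -1.23 ± 0.29 (SE), with an unadjusted p of 0.00253 and an adjusted p of 0.216 in edgeR. Of the 9 tested replacement histones it was the only one with an unadjusted p under 0.05. Among 22 histone chaperones, Chaf1a was higher and Npm1 lower at that level, and 0 were called. Chaf1a, with 4 and 4 WT counts against 19 and 34 in DKO, passed the count filter only through the DKO libraries, so nothing is read from it.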

How the data were processed

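RNA of 2 WT and 2 DKO samples was measured. Estimated counts per transcript had been made by the authors with kallisto, with builds mm10 and GRCm38 named, per the submitters' processing notes; its version, its strand setting and the annotation were not given in the sources used here. TPM values were deposited too, scaled by the authors for effective length, per the file headers. Deposited lengths and effective lengths are in bases, per the file headers.

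Of 126782 transcripts, 125182 (98.7%) joined GENCODE M21 by identifier. Counts were summed to 48858 genes and rounded. Transcripts without a gene held 0.846% (WT) and 0.828% (DKO) of counts and were left out. edgeR 4.0.16 in R 4.3.3 (filterByExpr, TMM, robust quasi-likelihood, Benjamini-Hochberg at 0.05) was fitted on all genes by genotype after testing on simulated data. DESeq2 1.42.0, limma 3.58.1 on log2(TPM + 0.1) or log2(TPM + 1), other scalings, filters, a replicate block and left-out libraries were alternatives. The members and lists were chosen with earlier results of these data known. Named by rule are both deleted genes, the 4 most abundant members of each type, the 3 most abundant genes of each list, all tested H1 genes, up to 6 members a direction with the smallest p among those that do not overlap, and Slbp, Npat, Eri1, Upf1, Mki67, Pcna, Rnu7 and Foxp3; other genes were chosen after their values were seen, and some genes of the rule stand in the closing section alone. RefSeq promoters were assigned by symbol, strand and position. Promoters and transcripts were searched for motifs, and coding parts were compared in 31-base words. Depth was 13889894 to 17827631 counts; intervals and floors of 3 counts cover counting error only.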

Additional observations from a re-analysis of the deposited data

How the results depend on the processing

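With 0 histone genes called by edgeR, the counts in the alternatives were 1 with DESeq2 size factors, 3 with total counts only, 8 with scaling to 5 RNA polymerase III transcripts, 1 with protein-coding genes only, 6 without a filter on low counts, 2 in DESeq2 and 1 to 2 with 1 library left out. An effective length offset, limma on TPM and, chosen after seeing the data, identical copies summed gave 0. Total counts only and polymerase III scaling move the median of all genes to 0.33 and 0.90 (log2), so their calls stand relative to that. The replicate block called 3, Hist1h2ab, Hist1h2ap and Hist2h2aa2. The labels do not say that the number marks a pair, and same-numbered libraries deviated with a correlation of -0.316 over 12863 genes, so the block is no evidence of pairing. The other lists, with 0 called, had 2 with total counts only, 7 with polymerase III scaling, 4 without the filter, 2 in DESeq2, 3 with the replicate block and 0 to 2 with 1 library left out.

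The log2 ratio of summed levels, given with total counts only, polymerase III scaling and TPM in that order, was 0.43, 1.02 and 0.57 for all members (0.09 in the report's scaling), 0.46, 1.06 and 0.64 for H1, 0.42, 1.01 and 0.53 for H2A, 0.42, 1.02 and 0.59 for H2B, 0.32, 0.91 and 0.51 for H4, 0.49, 1.08 and 0.67 for Hist1, 0.20, 0.80 and 0.23 for Hist2, 0.49, 1.08 and 0.69 for Hist3, and -0.082, 0.51 and -0.032 for Hist4. For H3 it was 0.91 and 0.51 in the last 2. By 3′ end it was 2.22 with polymerase III scaling for models that end near the stem-loop, 0.23, 0.82 and 0.28 for those that extend past it, 0.64, 1.23 and 0.75 for the unclassified, and 1.01 and 0.52 in the last 2 for those without a stem-loop. The share on extended models differed by -7.17 points (DKO minus WT), and by -4.62 points with over 100 bases and -8.99 to -5.34 with 1 library left out. No unclassified transcript is counted as extended in these shares.

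Signs of single genes turned as follows, none of them called in the report's fit. With total counts only, log2 fold changes were 0.25 for Hist1h1c, 0.28 for Hist2h3b, 0.20 for Hist2h4, 0.35 for H2afy, 0.20 for H3f3b and 0.27 for Tut4. With polymerase III scaling they were 0.85 for Hist1h1c, 0.54 for Hist1h2be, 0.56 for Hist1h3e, 0.43 for Hist1h3f, 0.13 for Hist2h2aa2, 0.44 for Hist2h2ac, 0.21 for Hist2h2bb, 0.93 for Hist2h3b, 0.83 for Hist2h4, 0.57 for Hist4h4, 0.95 for H2afy, 0.81 for H3f3b, 0.44 for Npm1 and 0.85 for Tut4. In limma on log2(TPM + 0.1) and log2(TPM + 1) they were 0.30 and 0.28 for Hist1h1c, 0.37 and 0.19 for Hist2h3b, 0.25 and 0.097 for Hist2h4, 0.34 and 0.30 for H2afy and 0.21 and 0.19 for H3f3b, with 0.0017 for Hist1h3e in the first and 5.0e-05 for Hist1h2be in the second. An effective length offset gave -0.0052 for Atrx and -0.12 for Eri1, protein-coding genes only -0.027 for Srrt and -0.024 for Tut7, and H2afy was 0.034 without the filter and 0.0065 with the replicate block. With 1 library left out, the range was -0.019 to 1.90 for Hist1h1b, -0.23 to 0.050 for Hist1h1c, -0.17 to 0.61 for Hist1h1d, -0.14 to 0.37 for Hist1h2bc, -1.09 to 0.39 for Hist1h3e, -0.24 to 0.41 for Hist1h4c, -0.063 to 0.61 for Hist1h4d, -0.20 to 1.62 for Hist2h2aa1, -0.52 to 0.48 for Hist2h3b, -0.55 to 0.42 for Hist2h4, -0.037 to 0.28 for Atrx, -0.026 to 0.21 for Fip1l1, -0.16 to 0.19 for H2afy, -0.10 to 0.35 for H3f3a, -0.32 to 0.028 for H3f3b, -0.012 to 0.25 for Mcm2, -0.00086 to 0.25 for Set, -0.011 to 0.072 for Srrt, -0.042 to 0.22 for Tubb5 and -0.048 to 0.11 for Tut7. The cause was not tested.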
